A study of Homo sapiens with 4 samples.

Results

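FOXA1, FOXA2 and FOXA3, the 3 genes of the FOXA subfamily of forkhead transcription factors, and LINC00261, the long noncoding RNA gene beside FOXA2, are 4 of the 43622 rows of the RNA-seq table of PC3 cells. The 4 rows were chosen by name with their values in this table already known, and LINC00261 was selected on its fall in MLN vs Ctrl and in Both vs MLN, so levels and fold changes of the 4 are given as descriptions with no test. FOXA factors bind their sites in closed chromatin and open it for other factors. FOXA1 and FOXA2 act in endoderm and the organs made from it, FOXA1 is a factor of luminal prostate cells, FOXA2 is known from the budding prostate and from neuroendocrine prostate tumours, and FOXA3 works mainly in liver and gut. LINC00261 is known from definitive endoderm, lung and liver, where it is made together with FOXA2.

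PC3 is an established human line from a prostate adenocarcinoma, and MLN4924 (pevonedistat) inhibits the enzyme that activates NEDD8, on which the cullin-RING ubiquitin ligases depend. Cells of genotype wt received DMSO (called Ctrl) or 1 µM of the inhibitor (called MLN), and cells of genotype Sh ARF, named PC3-shp14ARF, received the same vehicle (called shARF) or the same dose (called Both). Exposure lasted 3 days, and each of the 4 conditions has 3 libraries. The short hairpin RNA against p14ARF was introduced stably, and no control hairpin is named for the Ctrl and MLN cells, so in shARF vs Ctrl and Both vs MLN the hairpin and its delivery cannot be told apart from the loss of p14ARF. Whether the libraries of a condition came from separate cultures is not stated, so errors and p-values measure the spread between these libraries, which may be technical.

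CDKN2A, the gene of p14ARF, averaged 183 ± 6.49, 118 ± 16.4, 59.3 ± 1.47 and 47.5 ± 6.40 TPM in Ctrl, MLN, shARF and Both, the order kept below (mean ± SD, n = 3 throughout). It was lower in shARF vs Ctrl by a log2 fold change of −1.63 (standard error 0.035, adjusted p = 2.24e-05) and in Both vs MLN by −1.31 (standard error 0.14, adjusted p = 0.00188); the row does not separate p14ARF from the p16INK4a transcript of the same gene. TPM gives a gene's share of all transcripts of a library, corrected for length, and carries no depth, so the reads behind a value are unknown. Correlations of log2(TPM + 0.1) over genes ran from 0.975 to 0.980 within conditions and from 0.889 to 0.959 between them, and no library stood apart from its condition. All 5 epithelial markers were at a mean of at least 1 TPM in each condition, whereas the luminal prostate markers KLK3 and FOLH1 were listed at 0 in all 12 libraries.

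LINC00261 and FOXA2 lie side by side on the minus strand of chromosome 20. On GRCh38, FOXA2 (ENSG00000125798.15) spans chr20:22580998-22585455 and LINC00261 (ENSG00000259974.5) spans chr20:22547663-22578642. LINC00261 thus lies downstream of FOXA2, with 2355 bases between the 2 annotated genes and 6.81 kb between their starts, and no annotated gene overlaps either of them. The canonical LINC00261 transcript has 4 exons and 4912 bases, and the annotation holds 8 transcripts of it. FOXA1 (ENSG00000129514.8) spans chr14:37589552-37596059 on the minus strand and FOXA3 (ENSG00000170608.3) spans chr19:45863989-45873797 on the plus strand. TTC6 overlaps FOXA1 on the opposite strand, and whether strand was used in counting is not given in the sources used here. TTC6 itself averaged 0.650 ± 0.04999, 0.405 ± 0.0769, 2.05 ± 0.167 and 0.929 ± 0.242 TPM, far below FOXA1.

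The start region of LINC00261 is shown because this RNA had the widest range of the 4 genes. It covers 250 bases before and 50 after the RefSeq start (GRCh38.p14, chr20:22578593-22578892, minus strand), is written 5′ to 3′, and has in capitals the only match to 4 forkhead words that were searched on both strands.

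LINC00261 start region: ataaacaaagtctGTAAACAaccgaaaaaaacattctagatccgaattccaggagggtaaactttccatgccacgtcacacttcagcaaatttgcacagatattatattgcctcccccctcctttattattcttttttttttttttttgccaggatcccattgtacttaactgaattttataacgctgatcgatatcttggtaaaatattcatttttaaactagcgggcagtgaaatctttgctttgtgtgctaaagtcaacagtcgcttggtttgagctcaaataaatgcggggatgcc

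The words were TGTTTAC, the core that forkhead domains are known to prefer, and next to it TGTTTGC, with TATTTAC as a looser form of the former and TATTTGC as a looser form of the latter. The capitals are TGTTTAC read on the other strand, at bases 14 to 20 of the window, which is position −237 from the start. Of 35116 RefSeq windows of the same length, 3.42% held TGTTTAC and 12.1% held any of the 4 words. The FOXA1 window held 1 match, GCAAACA at bases 16 to 22, and the FOXA3 window held none. Of the 4 genes, 3 were matched in the table of windows, FOXA2 not among them. The LINC00261 window has a GC content of 37%, against 69.3% for FOXA1 and 76.3% for FOXA3. A word in a window is a match of letters and says nothing of binding in these cells.

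LINC00261 was at its highest in Ctrl and all but absent in Both. Its level was 38.6, 35.0 and 32.5 TPM in the Ctrl libraries and 2.60, 2.74 and 2.80 TPM in the MLN libraries. In the shARF libraries it was 5.59, 9.74 and 8.32 TPM, and in the Both libraries it was listed at 0 in 2 and at 0.0263 TPM in the other. The order was Ctrl, shARF, MLN, Both, and no neighbouring conditions in this order overlapped. In bulk RNA, fewer cells with the transcript and less of it per cell cannot be told apart.

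**Figure D1:**
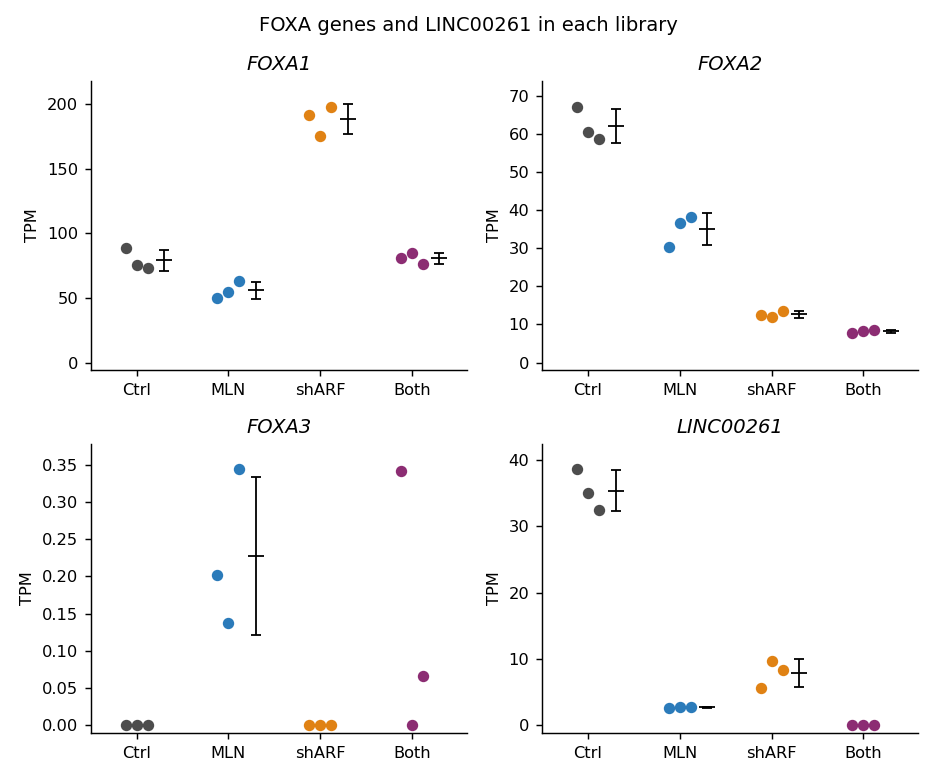
TPM of FOXA1, FOXA2, FOXA3 and LINC00261 (vertical axes, 1 scale per gene) in the 12 libraries by condition; points are libraries, and the bar beside them is the mean ± SD (n = 3), left out where a library is at 0. FOXA2 falls from Ctrl to Both without overlap, LINC00261 is highest in Ctrl (32.5 to 38.6 TPM), and FOXA1 is highest in shARF (175 to 198 TPM).

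MLN4924 left LINC00261 at 7.67% of its Ctrl mean in PC3 cells. On the scale of log2(TPM + 0.1) the fold change was −3.65 (standard error 0.078) in MLN vs Ctrl and −2.18 (0.25) in shARF vs Ctrl, where the mean stood at 22.3% of Ctrl. Of the 19932 genes tested, LINC00261 had rank 78 from the lowest in MLN vs Ctrl and rank 388 in shARF vs Ctrl. The fold change was −4.70 (0.12) in Both vs MLN and −6.17 (0.26) in Both vs shARF, with rank 8 and rank 5 from the lowest. Since 2 Both libraries were listed at 0, these fold changes are set by the pseudocount: in Both vs MLN it was −1.88 with a pseudocount of 1 and −7.47 with 0.01, and in Both vs shARF it was −3.11 and −8.97. The ranks were taken at a pseudocount of 0.1 only. LINC00261 was selected on its fall in MLN vs Ctrl and Both vs MLN, so low ranks there follow from that choice. MLN vs Ctrl and shARF vs Ctrl share the Ctrl libraries, as Both vs MLN and Both vs shARF share the Both libraries, so the values of such pairs are not independent.

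FOXA2 was lower in the same 4 comparisons. It was at 67.2, 60.6 and 58.6 TPM in the Ctrl libraries and at 30.4, 36.6 and 38.4 TPM in the MLN libraries. In the shARF libraries it was at 12.4, 11.9 and 13.6 TPM, and in the Both libraries at 7.71, 8.29 and 8.47 TPM. The order was Ctrl, MLN, shARF, Both, again with no overlap between neighbours. The mean with MLN4924 was 56.5% of that with DMSO for PC3 and 64.5% for PC3-shp14ARF cells, whereas the mean with the hairpin was 20.4% of that without it under DMSO and 23.2% under MLN4924. As log2 fold changes this was −0.83 (0.12) for MLN vs Ctrl and −0.63 (0.069) for Both vs shARF, against −2.29 (0.081) for shARF vs Ctrl and −2.09 (0.11) for Both vs MLN. FOXA2 had rank 337 from the lowest in shARF vs Ctrl and rank 3623 in MLN vs Ctrl.

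For every condition the share of LINC00261 relative to its neighbour was computed within each library, which needs no pseudocount. In the Ctrl libraries LINC00261 was at 57.4%, 57.7% and 55.4% of the FOXA2 TPM, and in the shARF libraries at 45.1%, 81.6% and 61.2%. The shARF libraries lay on both sides of the Ctrl ones: in shARF vs Ctrl the fold change of LINC00261 minus that of FOXA2 was 0.10 (standard error 0.24). In the MLN libraries LINC00261 was at 8.56%, 7.48% and 7.29% of FOXA2, and in the Both libraries it was at 0 in 2 and at 0.310% in the other. With drug the share was thus lower than in any library without drug, in PC3 as in PC3-shp14ARF cells. On the log2 scale the fold change of LINC00261 minus that of FOXA2 was −2.83 (0.075) in MLN vs Ctrl and −5.54 (0.26) in Both vs shARF, where it was −2.53 with a pseudocount of 1 and −8.34 with 0.01. In Both vs MLN the difference was −2.61 (0.12), and it turned to 0.095 with a pseudocount of 1, which is near the MLN level of LINC00261.

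**Figure D2:**
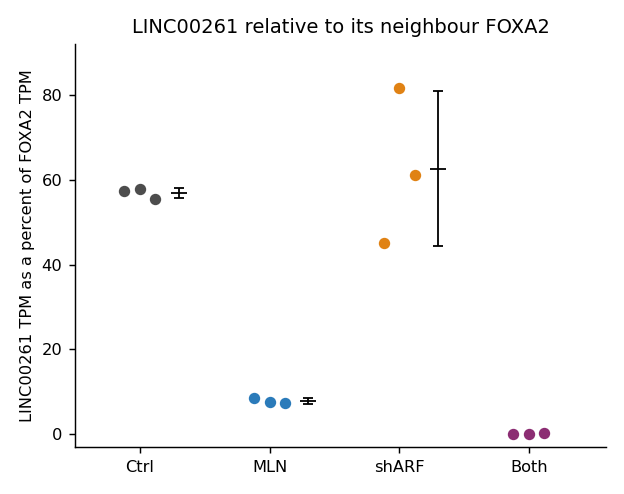
LINC00261 TPM as a percent of FOXA2 TPM (vertical axis) in each library by condition; points are libraries, and bars are the mean ± SD (n = 3), left out for Both, where 2 libraries are at 0. Ctrl (55.4% to 57.7%) and shARF (45.1% to 81.6%) overlap, and both lie above MLN (7.29% to 8.56%) and Both.

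FOXA1 took another course and was highest in shARF. Its level was 88.5, 75.5 and 72.9 TPM in the Ctrl libraries and 49.99, 54.8 and 63.2 TPM in the MLN libraries. In the shARF libraries it was 191.6, 175.2 and 198.0 TPM, and in the Both libraries 80.8, 85.1 and 76.3 TPM. All shARF libraries were above every other library, all MLN libraries were below, and the Both libraries lay within the range of Ctrl. The shARF mean was 2.38 times the Ctrl mean. The log2 fold changes were −0.50 (0.13) in MLN vs Ctrl, 1.26 (0.10) in shARF vs Ctrl, 0.53 (0.11) in Both vs MLN and −1.22 (0.069) in Both vs shARF. In shARF vs Ctrl FOXA1 had rank 812 from the highest of 19932 genes.

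The libraries of FOXA1, FOXA2 and LINC00261 did not overlap between the groups of any of these 4 comparisons. The share of all genes without such overlap was not counted, and the calls given next follow another rule. Over all 19932 genes, a call by limma (adjusted p < 0.05 with a log2 fold change beyond 1 in either direction) was made for 15.6% as higher and 12.4% as lower in MLN vs Ctrl, for 3.87% and 6.6% in shARF vs Ctrl, for 2.18% and 6.84% in Both vs MLN, and for 13% and 13.4% in Both vs shARF. The difference between the response of PC3-shp14ARF cells and that of PC3 cells to MLN4924 was −0.72 (standard error 0.15) for FOXA1 and 0.20 (0.14) for FOXA2 on the log2 scale. For LINC00261 it is set by the pseudocount and has no stable sign, at −2.52 with 0.1, 0.18 with 1 and −5.27 with 0.01. In the same contrast, the interaction, 3.52% of all genes were called higher and 4.95% lower, which is 701 and 987 genes, against 847 and 833 under median-of-ratios scaling.

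PECAM1, listed as an endothelial marker, moved in the direction of LINC00261, and the summed endothelial list ran from 11.03 to 12.6 TPM in Ctrl, 0.679 to 1.03 in MLN, 1.88 to 1.97 in shARF and 0.160 to 0.262 in Both. PECAM1 alone made up most of it in Ctrl, at 11.7 ± 0.770 TPM, while the defining endothelial markers VWF and CDH5 stayed at or below 0.0301 and 0.327 TPM in every library. The fibroblast list of 4, with 2 at a mean of at least 1 TPM in each condition, summed to 13.3 to 15.7 TPM in Ctrl, 19.4 to 22.02 in MLN, 53.1 to 64.0 in shARF and 10.1 to 11.2 in Both, mostly COL1A1 and COL1A2, with DCN at or below 0.126 TPM. The epithelial list summed to 907 to 1004 TPM in Ctrl, 439 to 504 in MLN, 1138 to 1280 in shARF and 433 to 450 in Both. The luminal prostate list of 7, with 2 or 3 at a mean of at least 1 TPM in each condition and most of its sum from HOXB13, ran from 340 to 393 TPM in Ctrl, 62.3 to 83.0 in MLN, 736 to 777 in shARF and 63.0 to 69.2 in Both. Like FOXA1, it was highest in the shARF libraries and lower with drug in PC3 as in PC3-shp14ARF cells. The hepatocyte and immune lists summed to at most 0.585 and 1.07 TPM in any library. The part of these markers in the values of the 4 genes was not tested.

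FOXA3 was at or near the floor of the table. It was listed at 0 in all Ctrl and all shARF libraries. In the MLN libraries it was at 0.202, 0.137 and 0.344 TPM, and in the Both libraries at 0.342, 0 and 0.0666 TPM. It was above 0 in drug-treated libraries only, in 5 of 6, at levels where the reads behind a value are unknown. Its mean over the 12 libraries was under 0.1 TPM, so it was not among the genes tested, and no fold is given against conditions listed at 0.

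The FOXA1 part of the FOXA pool was larger in every PC3-shp14ARF library than in any PC3 library. TPM are per length, so the 3 genes can be compared within a library. FOXA1 made up 55.9 ± 0.782% of the summed FOXA TPM in Ctrl and 61.3 ± 1.23% in MLN, against 93.7 ± 0.190% in shARF and 90.7 ± 0.641% in Both. The ratio of FOXA1 to FOXA2 averaged 1.27 ± 0.0407, 1.60 ± 0.0847, 14.9 ± 0.489 and 9.92 ± 0.798 in the 4 conditions. The sum of the 3 averaged 141 ± 12.8, 91.3 ± 10.6, 201 ± 12.5 and 89.0 ± 4.26 TPM. These shares restate the levels above and carry no test of their own.

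Among the 44 forkhead rows of the table, FOXA1 was the third and FOXA2 the fourth most abundant in Ctrl and in MLN, behind FOXL1 and FOXM1. In shARF and in Both, FOXA1 was the first, and FOXA2 came at rank 14 and rank 15. FOXL1, a factor of gut mesenchyme, was at 96.4 ± 8.21 TPM in Ctrl and 83.5 ± 6.18 in shARF, and FOXM1, a driver of mitotic genes, was at 80.3 ± 7.01 and 102 ± 2.73. These 2 were picked after their values were seen.

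Of the 41 other forkhead genes, 25 passed the filter on low values (a mean of at least 0.1 TPM). In MLN vs Ctrl, 4 rose and 2 fell, 16% and 8% against 15.6% and 12.4% over all genes. The median log2 fold change was 0.03 against 0.05. FOXO1, which acts below insulin signalling, rose from 3.17 ± 0.334 to 6.86 ± 0.479 TPM (log2 fold change 1.09, adjusted p = 0.000361, standard error 0.11). FOXN3, a repressor linked to the cell cycle checkpoint, fell from 21.5 ± 1.48 to 8.20 ± 0.2997 TPM (−1.38, 0.071, adjusted p = 2.48e-05). Also called were FOXD3 and FOXO6, which rose, and FOXD4, which fell, each at a mean below 1 TPM over the 12 libraries. FOXO1 and FOXN3 were called in Both vs shARF as well, at 1.26 (0.096, adjusted p = 0.0001) and −1.40 (0.084, adjusted p = 3.99e-05). There 4 rose (FOXO1, FOXC1 and FOXD3 among them) and 3 fell (FOXN3, FOXP1 and FOXD4). These were 16% and 12% against 13% and 13.4% over all genes, with a median of 0.16 against −0.04. FOXC1, a mesoderm and eye factor, rose from 13.4 ± 1.26 to 37.3 ± 4.16 TPM, and FOXD3 lost its call without shARF replicate 3, shARF replicate 5 or Both replicate 3, with an adjusted p of up to 0.081.

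With the hairpin none of the 25 rose and 3 fell, in shARF vs Ctrl as in Both vs MLN, and in both comparisons these were FOXD3, FOXP2 and FOXQ1. Higher and lower calls were 0% and 12% of the list in both comparisons. Over all genes they were 3.87% and 6.6% in shARF vs Ctrl, and 2.18% and 6.84% in Both vs MLN. The medians were −0.17 and −0.03, against 0.00 and −0.08 over all genes. FOXQ1, a factor of epithelia, went from 2.25 ± 0.0498 TPM in Ctrl to 0.408 ± 0.201 in shARF (−2.29, standard error 0.33, adjusted p = 0.00435), and from 2.18 ± 0.453 in MLN to 0.709 ± 0.215 in Both (−1.52, 0.28, adjusted p = 0.0106). Without the MLN replicate 5, FOXD4 and FOXH1 were called too in Both vs MLN, 5 in all.  In the interaction limma called none of the 25, against 3.52% higher and 4.95% lower over all genes. At an unadjusted p below 0.05 there were 6, and over the other settings limma called none of the 25. With no filter it called FOXN1, which was not among them.

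**Figure D3:**
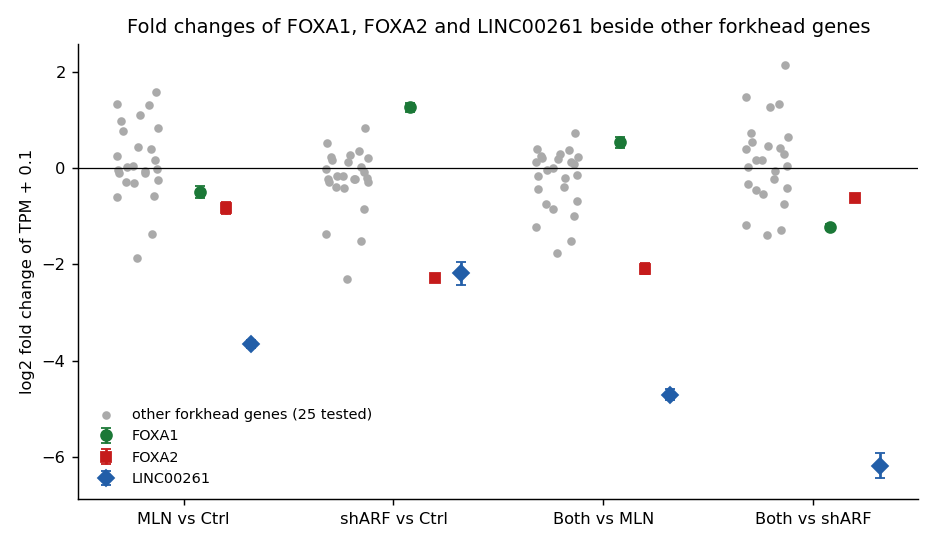
Log2 fold change of TPM + 0.1 (vertical axis) in the 4 comparisons; grey points are the 25 other forkhead genes tested, and coloured marks are FOXA1, FOXA2 and LINC00261 with their standard error from 3 libraries a group. LINC00261 lies at or below −2.18 in all 4 comparisons, and FOXA1 and FOXA2 point in opposite directions in shARF vs Ctrl (1.26 and −2.29) and Both vs MLN (0.53 and −2.09).

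Factors that work beside FOXA proteins were read from a list of 27, of which 18 were tested. This list too was made with earlier results of these data known, so its counts are a description. In MLN vs Ctrl 3 rose and 2 fell, 16.7% and 11.1% against 15.6% and 12.4% over all genes. The median was −0.0023 against 0.05. HOXB13, a homeobox factor that binds with FOXA1 in prostate cells, averaged 355 ± 29.6, 71.2 ± 11.2, 755 ± 20.4 and 64.4 ± 3.53 TPM. It fell in MLN vs Ctrl (−2.33, standard error 0.13, adjusted p = 3.34e-05) and in Both vs shARF (−3.55, 0.052, adjusted p = 7.35e-07), and rose in shARF vs Ctrl (1.09, 0.067, adjusted p = 0.000328). Like FOXA1 it was highest in every shARF library, but MLN and Both differed by −0.13 (0.12, adjusted p = 0.461).

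CEBPB, a bZIP factor of inflammation and fat cell differentiation, rose from 116 ± 1.92 to 296 ± 10.8 TPM in MLN vs Ctrl (1.34, 0.045, adjusted p = 7.43e-06). SMAD3, an effector of TGF-beta and activin signals, fell from 55.6 ± 4.44 to 22.8 ± 0.520 TPM (−1.28, 0.067, adjusted p = 2.64e-05). ONECUT1 was also called higher. In shARF vs Ctrl, HOXB13 and CEBPA were called higher and TLE4 and EOMES lower. That was 11.1% each way against 3.87% higher and 6.6% lower over all genes, with a median of −0.29 against 0.00. The call of CEBPA was lost without Ctrl replicate 2, Ctrl replicate 3 or shARF replicate 5, with log2 fold changes of 0.99, 0.94 and 0.91. TLE4, a Groucho corepressor, fell from 8.13 ± 0.536 to 2.64 ± 0.197 TPM (−1.59, 0.090, adjusted p = 0.000257). EOMES, a T-box factor of endoderm and mesoderm formation, fell from 4.27 ± 0.240 to 1.28 ± 0.113 TPM (−1.67, 0.11, adjusted p = 0.000382).

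In Both vs MLN 2 of the 18 fell and none rose, 11.1% and 0% against 6.84% and 2.18% over all genes. The median was −0.27 against −0.08. EOMES averaged 7.74 ± 0.394 TPM without the hairpin and 3.22 ± 0.152 with it (−1.24, 0.087, adjusted p = 0.000609), and TLE2, another Groucho corepressor, averaged 21.5 ± 2.58 and 7.95 ± 0.750 TPM (−1.42, 0.12, adjusted p = 0.000912). In Both vs shARF 3 of the 18 rose (CEBPB and EOMES among them) and 3 fell (HOXB13, TLE1 and CEBPA). That was 16.7% each way against 13% higher and 13.4% lower over all genes, with a median of −0.08 against −0.04. CEBPA lost this call without shARF replicate 5 or Both replicate 3, at −0.94 and −0.95.

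Genes known to depend on FOXA factors in liver, lung, gut, pancreas or prostate made a list of 28, of which 15 were tested. Most of those not tested are liver, lung or islet genes. The list was made with earlier results of these data known, so its counts are a description and no independent support. In MLN vs Ctrl 8 of the 15 fell and 2 rose, 53.3% and 13.3% against 12.4% and 15.6% over all genes. The median was −1.06 against 0.05. The 8 were AGR2, SERPINA1, SHH, CPS1, TFF1, MUC2, TMPRSS2 and IGFBP1, the last 3 at low levels. MUC2 and TMPRSS2 were highest in Ctrl (means of 0.699 and 0.234 TPM) and would not pass the filter without the Ctrl libraries. Their fall from Ctrl was thus in part fixed by the filter. IGFBP1 lost its call without Ctrl replicate 3, MLN replicate 1 or MLN replicate 5, and TMPRSS2 without Ctrl replicate 1, at log2 fold changes from −0.98 to −0.90. AGR2, a protein disulfide isomerase of mucus-making epithelia, was at 768, 739 and 768 TPM in the Ctrl libraries and at 24.9, 35.1 and 24.97 TPM in the MLN libraries (−4.76, 0.14, adjusted p = 5.19e-06).

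In PC3-shp14ARF cells AGR2 was at 640, 697 and 647 TPM with DMSO and at 15.0, 15.8 and 15.9 TPM with MLN4924 (Both vs shARF −5.40, 0.048, adjusted p = 2.78e-07). In shARF vs Ctrl it differed by −0.20 (0.046, adjusted p = 0.021), below the fold needed for a call. SHH, a ligand of the Hedgehog pathway that FOXA2 controls in the foregut, was called lower with each treatment. Its means were 52.1 ± 3.78, 8.34 ± 0.690, 3.28 ± 0.226 and 0.967 ± 0.0565 TPM. MLN vs Ctrl gave −2.63 (0.085, adjusted p = 6.67e-06), shARF vs Ctrl −3.95 (0.078, adjusted p = 1.84e-05), and Both vs MLN −2.98 (0.12, adjusted p = 0.000207). SERPINA1, which encodes alpha-1 antitrypsin, was called lower in the same 3 comparisons, with means of 46.5 ± 5.35, 6.36 ± 1.29, 7.42 ± 0.260 and 1.04 ± 0.202 TPM. MLN vs Ctrl gave −2.87 (0.17, adjusted p = 4.14e-05), shARF vs Ctrl −2.63 (0.091, adjusted p = 7.14e-05), and Both vs MLN −2.49 (0.22, adjusted p = 0.00108).

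**Figure D4:**
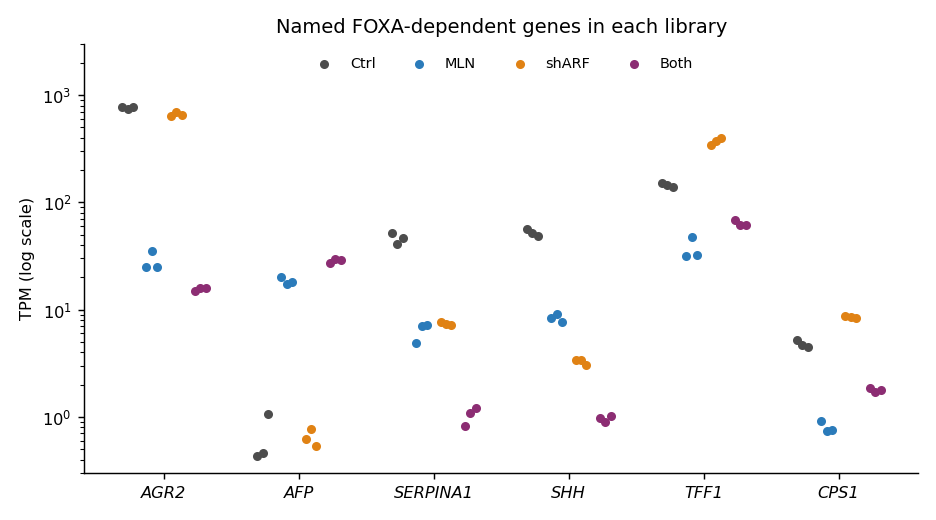
TPM on a log axis of the 6 named FOXA-dependent genes in each of the 12 libraries, coloured by condition; points are libraries. SERPINA1 and SHH are lowest in Both (1.04 and 0.967 TPM on average), AGR2 is low in both conditions with MLN4924, TFF1 is highest in shARF, and AFP is above 10 TPM only in the libraries with MLN4924.

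TFF1, a secreted trefoil peptide, averaged 146 ± 6.53, 37.0 ± 8.81, 371 ± 24.6 and 64.1 ± 4.05 TPM. It fell in MLN vs Ctrl (−2.005, 0.16, adjusted p = 0.000119) and rose in shARF vs Ctrl (1.34, 0.061, adjusted p = 0.000145). CPS1, the first enzyme of the urea cycle, was at 4.78 ± 0.348, 0.801 ± 0.102, 8.53 ± 0.231 and 1.77 ± 0.0745 TPM in the same order and was the only gene of the list called higher in Both vs MLN (1.06, 0.15, adjusted p = 0.00481). AFP, the fetal liver protein alpha-fetoprotein, went the other way with the drug, from 0.654 ± 0.362 to 18.5 ± 1.54 TPM in MLN vs Ctrl (4.72, 0.32, adjusted p = 6.36e-05) and from 0.642 ± 0.114 to 28.5 ± 1.39 TPM in Both vs shARF (5.28, 0.13, adjusted p = 2.3e-06). NKX2-1, a lung and thyroid factor, was the other gene called higher in MLN vs Ctrl.

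In shARF vs Ctrl, 2 of the 15 rose (TFF1 and APOA1) and 3 fell (SHH, SERPINA1 and MUC2), 13.3% and 20%. Over all genes 3.87% rose and 6.6% fell, and the median was 0.03 against 0.00. In Both vs MLN, 1 rose and 3 fell (SHH, SERPINA1 and NKX2-1), 6.67% and 20% against 2.18% and 6.84% over all genes. The median there was −0.67 against −0.08. In Both vs shARF 2 rose (AFP and NKX2-1) and 7 fell, 13.3% and 46.7% against 13% and 13.4%, with a median of −0.77 against −0.04. The 7 were AGR2, TFF1, SERPINA1, SHH, CPS1, CDH1 and APOA1. APOA1 was listed at 0 in all Ctrl libraries, so its fold has no meaning as a size. In Both vs shARF its call was lost when shARF replicate 1 or 3 or Both replicate 2 or 3 was left out. APOA1 would not pass the filter without the shARF libraries, nor MUC2 without the Ctrl ones. Their calls in shARF vs Ctrl, and that of APOA1 in Both vs shARF, were thus in part fixed by the filter.

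Around the pair on chromosome 20, the annotation holds 48 other genes whose start lies within 1 Mb of that of FOXA2. Of these, 19 are in the table, 15 of them at a mean of at most 0.0463 TPM, and 4 were tested. The nearest of the 4, NXT1, starts 765 kb away, upstream of FOXA2, so between LINC00261 and FOXA2 and that distance no other row of the table was expressed above the filter. Limma called none of the 4 in any comparison, with 4 at an unadjusted p below 0.05 in MLN vs Ctrl, 3 in shARF vs Ctrl, 2 in Both vs MLN and 2 in Both vs shARF. Over all genes, 15.6% were called higher and 12.4% lower in MLN vs Ctrl, and 3.87% and 6.6% in shARF vs Ctrl. In Both vs MLN the shares were 2.18% and 6.84%, and in Both vs shARF 13% and 13.4%. With only 4 genes, the lack of calls does not set the neighbours apart from other genes. NXT1, an mRNA export factor, was at 88.1 ± 5.59, 101 ± 7.88, 102 ± 5.32 and 98.2 ± 12.2 TPM in Ctrl, MLN, shARF and Both. GZF1, a zinc finger repressor, was at 15.2 ± 0.518, 13.2 ± 0.524, 11.7 ± 0.339 and 9.05 ± 0.937 TPM, and NAPB, a vesicle fusion adaptor, at 8.54 ± 0.513, 11.1 ± 0.698, 5.03 ± 0.479 and 7.42 ± 0.369 TPM. LINC01431, a long noncoding RNA gene of unknown role, was at 3.53, 1.60 and 4.34 TPM in the Ctrl libraries and 1.58, 0.894 and 1.61 TPM in the MLN libraries. In the shARF libraries it was at 2.06, 1.66 and 3.02 TPM, and in the Both libraries at 0.890, 0 and 1.22 TPM. The order of its means was that of LINC00261, with overlap between Ctrl and shARF and between MLN and Both. The log2 fold change of LINC01431 in MLN vs Ctrl was −1.09 (adjusted p = 0.0642), and without Ctrl replicate 2 it was called at −1.50 (adjusted p = 0.0121). In Both vs shARF it was −2.17 (standard error 1.00, adjusted p = 0.109).

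**Figure D5:**
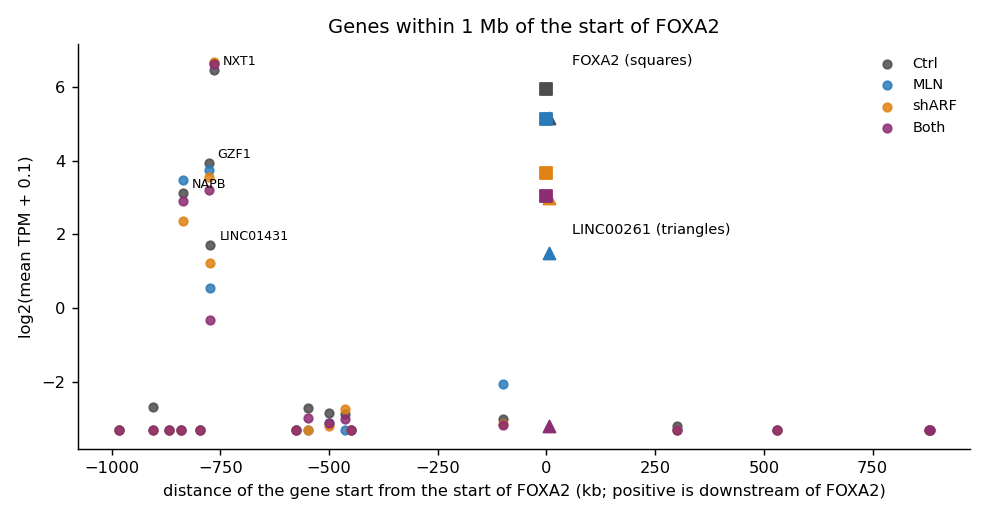
Mean level as log2(mean TPM + 0.1) (vertical axis) of the genes in the table that start within 1 Mb of FOXA2, against the distance of their start from that of FOXA2 in kb (horizontal axis, positive downstream); colours are the 4 conditions, squares FOXA2, triangles LINC00261. LINC00261 and FOXA2 stand alone above the floor until NXT1, LINC01431, GZF1 and NAPB, beyond 765 kb upstream.

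The pattern of each gene over the 4 conditions was compared with that of the 14660 genes at a mean of at least 1 TPM, by the root-mean-square difference of the condition means of log2(TPM + 0.1) after centring each gene. For LINC00261 the nearest were SCNN1B (0.74), HPGD (0.94) and SCNN1G (0.99), that is, 2 subunits of the epithelial sodium channel and the enzyme that breaks down prostaglandins. HPGD was at 105 ± 5.88, 4.15 ± 0.241, 17.1 ± 0.229 and 0.856 ± 0.186 TPM in Ctrl, MLN, shARF and Both, and SCNN1B at 45.9 ± 10.4, 3.19 ± 0.208, 5.22 ± 0.918 and 0.217 ± 0.0835 TPM. Its neighbour FOXA2 came only at place 481, with a difference of 2.29. For FOXA2 the nearest were CD82 (0.11), DPF3 (0.12) and COL16A1 (0.12), and LINC00261 came at place 14265. CD82, a tetraspanin, was at 3.21 ± 0.280, 1.98 ± 0.490, 0.595 ± 0.142 and 0.430 ± 0.0291 TPM. The measure counts the size of changes as well as their direction, and the Both mean of LINC00261 is set by the pseudocount. No other pseudocount was tried for these places. A far place does not mean opposite directions, since FOXA2 and LINC00261 were both lower in all 4 comparisons. With 4 conditions many genes can share a pattern, and the differences are a description.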

How the data were processed

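RNA-seq of total RNA from 12 libraries, 3 for each of 4 conditions, was analysed. Per the study's methods, the authors used CLC Genomics Workbench to remove adapters, align to hg38 and quantify Ensembl genes. The deposited values are TPM for 43622 genes, and every column was used. Their own differential expression was run with DESeq2 on read counts, which were not used here. Libraries were grouped by the sample titles.

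From the TPM values, log2(TPM + 0.1) was taken for the 19932 genes whose mean reached 0.1 TPM and fitted by limma 3.58.1 under R 4.3.3 (lmFit, eBayes with trend, Benjamini-Hochberg adjustment over all genes), in pairs of conditions and, for the interaction, over all 12 libraries. A call needed an adjusted p < 0.05 with a log2 fold change beyond 1 in either direction. Standard errors of FOXA1, FOXA2, FOXA3 and LINC00261 come from the spread of their own libraries. The fits were tested on simulated data.

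The 4 genes, the lists and the rules were chosen with earlier results of these data known. Named were CDKN2A, the tested neighbours within 1 Mb, the 3 genes most like LINC00261 and FOXA2, and, at a mean of at least 1 TPM, from each list the up to 4 with the largest change called in MLN vs Ctrl and the up to 3 called in shARF vs Ctrl and in Both vs MLN. Other genes named for a count were chosen after their values were seen. Some genes that the counts include are not reported here. Alternatives were pseudocounts of 1 and 0.01, no filter, a filter at 1 TPM, median-of-ratios scaling, eBayes without trend, a log2 cutoff of 2, a replicate block, 12 libraries in one fit and each library left out. Positions are from GENCODE on GRCh38.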

Additional observations from a re-analysis of the deposited data

Results flagged for a closer look

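For 6 genes of the partner and FOXA-dependent lists the response to MLN4924 differed between PC3-shp14ARF and PC3 cells in the interaction test (limma over 12 libraries). Of the 18 partner factors tested 16.7% were called lower and none higher, and of the 15 FOXA-dependent genes 13.3% and 6.67%. Over all genes 4.95% were called lower and 3.52% higher. HOXB13 fell further in PC3-shp14ARF cells, by −1.22 on the log2 scale (standard error 0.14, adjusted p = 8.44e-05), with every shARF library above every Ctrl library. CDH1, the gene of E-cadherin, had an interaction of −1.16 (0.14, adjusted p = 0.000127), with 16.3 ± 2.10, 12.7 ± 1.32, 21.5 ± 1.53 and 7.52 ± 0.337 TPM in Ctrl, MLN, shARF and Both. CEBPA had −1.33 (0.18, adjusted p = 0.000197), with 14.7 ± 1.5002, 18.2 ± 2.37, 29.6 ± 3.599 and 14.5 ± 1.86 TPM. These 3 kept their calls when any of the 12 libraries was left out.

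TLE2 had −1.04 (0.16, adjusted p = 0.000597) and lost its call at log2 values of −0.94, −0.96 and −0.98 when Ctrl replicate 2, MLN replicate 5 or Both replicate 3 was left out, and at −0.94 under median-of-ratios scaling. MUC2 had 1.47 (0.51, adjusted p = 0.0483) and lost its call in 10 of the 12 leave-outs, with an adjusted p of up to 0.0959. APOA1 had −2.61 (0.82, adjusted p = 0.0327) and lost its call in 9 of 12, with an adjusted p of up to 0.081. Both are at means below 1 TPM, and APOA1 was listed at 0 in Ctrl. MUC2 would not pass the filter without the Ctrl libraries, nor APOA1 without the shARF ones.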

How the results depend on the processing

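At a pseudocount of 1 rather than 0.1, the log2 fold change of LINC00261 was −3.29 in MLN vs Ctrl, −1.88 in Both vs MLN and −3.11 in Both vs shARF. With 0.01 it was −7.47 and −8.97 in Both vs MLN and Both vs shARF. The difference between LINC00261 and FOXA2 was −2.48 in MLN vs Ctrl, 0.095 in Both vs MLN (a reversed sign) and −2.53 in Both vs shARF with 1, and −5.37 and −8.34 in the latter 2 with 0.01. The small MLN level of LINC00261 and its zeros in Both make these values depend on the pseudocount. The response of LINC00261 in PC3-shp14ARF minus that in PC3 was 0.18 (a reversed sign) with 1 and −5.27 with 0.01, an alternative chosen after seeing the data. FOXA3 in Both vs MLN went from −0.70 to −1.79 with 0.01. Under median-of-ratios scaling FOXA1 and FOXA2 in Both vs shARF were at −1.12 and −0.53. Of the 194 values recomputed for the 4 genes, the other 179 stayed within 1 SD, including each library left out. Higher and lower calls in Both vs shARF went from 2600 and 2672 to 2905 and 2339 under that scaling. Genes called in MLN vs Ctrl, shARF vs Ctrl, Both vs MLN, Both vs shARF and the interaction numbered 5574, 2086, 1798, 5272 and 1688. They numbered 3511, 1059, 786, 3246 and 1011 with a pseudocount of 1, and 1880, 636, 480, 1832 and 511 with a cutoff of 2. A filter at 1 TPM gave 1148 in Both vs MLN. Other forkhead genes called, 6, 3, 3 and 7 in the 4 pairs, were 1, 1, 0 and 4 with a pseudocount of 1, 2, 1, 1 and 4 with the filter at 1 TPM, and 0, 1, 0 and 1 with the cutoff of 2. Partner factors, 5, 4, 2 and 6, were 2, 0, 0 and 1 with that cutoff, and 3 in Both vs shARF with a pseudocount of 1. FOXA-dependent genes in shARF vs Ctrl went from 5 to 3 with the pseudocount of 1, the filter at 1 TPM or the cutoff, and in Both vs MLN from 4 to 2 with the cutoff. Of the neighbours, LINC01431 was called in MLN vs Ctrl and in Both vs shARF with the filter at 1 TPM, 1 call each, and in Both vs shARF with 12 libraries in one fit, 1 call. With one library left out, forkhead calls in Both vs MLN ran from 3 to 5 and neighbour calls in MLN vs Ctrl from 0 to 1. The numbers in the column names only share a value: same-numbered libraries deviated with r from −0.046 to 0.022 over 10 pairs. A replicate block on these numbers left limma 0 calls in shARF vs Ctrl (7757 genes at an unadjusted p below 0.05), so also 0 in each list (forkhead 9, partner 11, FOXA-dependent 9 at that p), and 2 forkhead calls in MLN vs Ctrl. In these pairs the block uses up nearly all residual degrees of freedom, and only numbers found in both conditions inform the contrast. The loss of calls thus cannot be told apart from a loss of power. No paired analysis was possible because conditions share too few numbers in Both vs MLN and Both vs shARF. The TPM table carries no depth, which limits what a value at or near 0 says of FOXA3 and of LINC00261 in Both.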
